A study of Mus musculus with 6 samples.

Results

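Striatal projection neurons are represented here by 9 marker genes, Drd1, Drd2, Tac1, Penk, Rgs9, Ppp1r1b, Oprm1, Adora2a and Isl1, taken as a given list and matched by symbol to Ensembl identifiers. All 9 were found among the 33084 identifiers of the count table, and all 9 were among the 19403 genes tested. The samples were forebrains dissected from mouse embryos at 15.5 days post coitum, 3 of genotype wt and 3 of genotype Dyrk1a+/- (heterozygous for an inactivated Dyrk1a, the gene of a dual-specificity kinase). All embryos came from a single mutant line, and no other allele or treatment is named. The labels call the samples biological replicates, name neither the deleted part of Dyrk1a nor the litters, and give bulk RNA of the whole dissected forebrain. In such RNA fewer striatal neurons and less RNA per striatal neuron cannot be told apart. Counts of the same genes from other forebrain cells cannot be separated from these either.

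Projection neurons are the principal GABAergic cells of the striatum and are born in the lateral ganglionic eminence of the ventral forebrain. Neurons of the direct pathway carry the D1 dopamine receptor and substance P, and those of the indirect pathway carry the D2 dopamine receptor, enkephalin and the adenosine receptor Adora2a. D1 receptors stimulate cAMP production through a Gs-type protein and D2 receptors inhibit it, while Adora2a opposes D2 receptors in the same cell. At this embryonic stage the neurons are still being generated and most of their mature signalling genes are only starting to be expressed.

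Library totals ran from 18699434 to 32865708 counts. The libraries wt 3 and Dyrk1a+/- 2 held more 7SK, RNase P and RNase MRP RNA (4.46% and 4% of counts) than the 4 others (2.57% to 3.01%), so differences are also given within this pair and within the 4 others. Dyrk1a itself had 174 ± 12.9 CPM (counts scaled to the TMM-adjusted total of each library) in wt and 151 ± 6.28 in Dyrk1a+/- (SD, n = 3 per genotype). By edgeR this is -0.20 on the log2 scale with an SE of 0.079 (adjusted p = 0.59). It is a weak check of genotype, since the deleted part is not given.

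Of the 9 genes, 8 had lower fitted levels in Dyrk1a+/- forebrains and Isl1 a higher one, and the median log2 fold change was -0.33. Over all genes tested the median was 0.005 and 48.8% had a log2 fold change below 0. In Oprm1, Rgs9, Tac1 and Adora2a every Dyrk1a+/- library lay below every wt library; among all genes tested 7.49% did so. The same 4 genes were lower at an unadjusted p under 0.05, against 4.61% of all genes. None of the 9 lay wholly above wt, as 6.53% of all genes did. After Benjamini-Hochberg adjustment over all tested genes, the adjusted p used throughout, 0 of the 9 were under 0.05 by edgeR, where 0.0103% of all genes were. After adjustment DESeq2 and limma-voom also had 0 members under 0.05. No change is therefore called for any single member.

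Promoter sequences are shown for Oprm1, Rgs9 and Tac1, lower in every Dyrk1a+/- library, and for Isl1, which was not. No change is called for any of them. Drd1 and Drd2, also lower in value, had entries too, but their sequences are not shown. They are the bases before the annotated start, from RefSeq on GRCm38.p6, which held entries for 6 of the 9 members (not for Penk, Ppp1r1b and Adora2a); bases inside any GENCODE exon were left out, which left 68 bases for Tac1 and 249 for Isl1. Each is written 5′ to 3′ along the gene's strand, with matches to the searched motifs in capitals.
Oprm1, chr10:6788320-6788569, plus strand: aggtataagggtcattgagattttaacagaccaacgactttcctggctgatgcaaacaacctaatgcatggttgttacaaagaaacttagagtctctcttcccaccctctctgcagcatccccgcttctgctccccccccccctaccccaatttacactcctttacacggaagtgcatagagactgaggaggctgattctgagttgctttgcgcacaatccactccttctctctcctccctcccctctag
Rgs9, chr11:109298182-109298431, minus strand: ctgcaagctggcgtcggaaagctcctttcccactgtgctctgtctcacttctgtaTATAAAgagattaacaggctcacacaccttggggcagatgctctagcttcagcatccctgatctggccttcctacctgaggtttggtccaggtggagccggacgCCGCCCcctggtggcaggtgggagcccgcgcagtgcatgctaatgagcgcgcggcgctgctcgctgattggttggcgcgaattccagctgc
Tac1, chr6:7554811-7554878, plus strand: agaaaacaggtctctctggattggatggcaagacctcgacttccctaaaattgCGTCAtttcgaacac
Isl1, chr13:116309690-116309938, minus strand: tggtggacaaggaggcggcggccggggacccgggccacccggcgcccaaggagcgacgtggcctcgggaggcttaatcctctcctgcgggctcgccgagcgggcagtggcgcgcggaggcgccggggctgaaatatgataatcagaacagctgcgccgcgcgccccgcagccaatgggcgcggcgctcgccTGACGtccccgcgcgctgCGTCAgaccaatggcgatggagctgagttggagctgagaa

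The motifs searched on both strands were the cAMP response element TGACGTCA, its half-site TGACG (which lies within it), the GC box GGGCGG, the E-box CACGTG, the AP-1 motif TGANTCA and the TATA motif TATAAA. The Tac1 window held 1 half-site, read as CGTCA on the strand shown, where 3.45% of 32851 RefSeq promoter windows of the same 68 bases hold one. In each promoter these are the 68 of 250 bases farthest from the RefSeq start. For Tac1 they end just before the GENCODE gene start, so the windows compared can differ in distance from the start. The Isl1 window held 2 half-sites, against at least 1 in 17.7% of windows of 249 bases. The Rgs9 window held 1 TATA match and 1 GC box, which 12.4% and 32.7% of windows of 250 bases hold. The Oprm1 window, upstream of 1 of 3 RefSeq starts of the gene, held no match to any of the 6. It lies inside the GENCODE span of Oprm1 (6758506 to 7038198), not before the start of that span. The window just before that start, 6758343 to 6758505, is not shown and also held no match. The full TGACGTCA is in 1.55% of windows of 250 bases and was in none of the 4 shown. Of the windows not shown, that of Drd2 held 2 GC boxes. Of the 2 Drd1 windows, that of 250 bases held 1 GC box and that of 203 bases held 0.

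Levels per length set the order of the members in wt forebrain. On the RPKM scale (CPM per kilobase of annotated exon), Isl1, the LIM-homeodomain factor of early direct-pathway neurons, had 11.7 ± 0.351 (SD, n = 3). Rgs9, the regulator of G-protein signalling enriched in striatum, came next at 4.21 ± 0.132. Drd1 (3.12), Tac1 (3.02), Ppp1r1b (2.87) and Adora2a (2.66) followed with ranges that overlapped from neighbour to neighbour. Penk (1.59) and Oprm1 (1.33) also overlapped, and Drd2 was lowest at 0.9 ± 0.145. The steps from Isl1 to Rgs9, Rgs9 to Drd1, Adora2a to Penk and Oprm1 to Drd2 were larger than the spread of the 3 libraries on either side. In Dyrk1a+/- forebrain Isl1 was again highest at 12.7 ± 1.21 RPKM and Drd2 lowest at 0.684 ± 0.128. Rgs9, at 3.1 ± 0.606 RPKM, then overlapped with Drd1 at 2.65 ± 0.253.

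**Figure D1:**
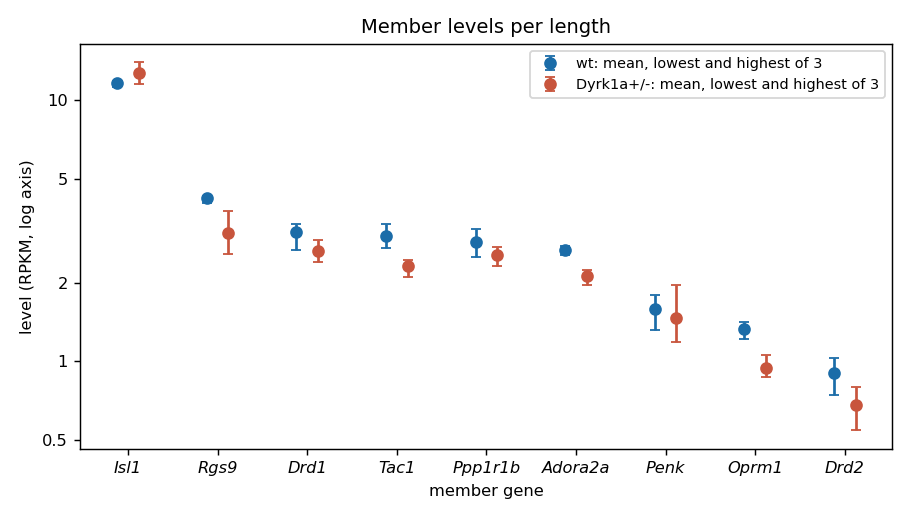
Level of each member per length (RPKM, log axis) in wt (blue) and Dyrk1a+/- (red) forebrain; points are means and bars run from the lowest to the highest of 3 libraries. Isl1 stands above all others near 12 RPKM and Drd2 lies below 1.1 RPKM in every library.

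Among the receptors, Oprm1 had the lowest p. Oprm1 (ENSMUSG00000000766, GRCm38 chromosome 10, 6758506 to 7038198) encodes the mu opioid receptor, which marks the striosome compartment of the developing striatum. It had 11.4, 10.9 and 9.78 CPM in wt libraries 1 to 3 and 7.25, 8.49 and 6.99 CPM in Dyrk1a+/- libraries 1 to 3. The groups did not overlap, and the highest Dyrk1a+/- library was the one of the pair with more 7SK. The fitted log2 fold change, -0.50 with an SE of 0.129, had a 95% interval from -0.79 to -0.20 and an adjusted p of 0.483 by edgeR. As a ratio this is 0.709 of the wt level, with an interval of 0.579 to 0.869. The pair of libraries alone differed by -0.20 on the log2 CPM scale, and the fit to the 4 others gave -0.65. Exons of Ipcef1, on the opposite strand, overlap those of Oprm1 and Ipcef1 had 1279 counts over all libraries, so if strand was not used in counting, part of these counts cannot be assigned.

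Adora2a (ENSMUSG00000020178, chromosome 10, 75316877 to 75334784), the Gs-coupled adenosine receptor of indirect-pathway neurons, also had groups that did not overlap. Its wt libraries were at 8.18, 8.45 and 7.84 CPM and its Dyrk1a+/- libraries at 5.99, 6.84 and 6.62 CPM. The 3 wt libraries lay close together and all 3 Dyrk1a+/- libraries lay below them. The fitted log2 fold change, -0.33 with an SE of 0.12, had a 95% interval from -0.60 to -0.057 and an adjusted p of 0.562 by edgeR. The pair alone differed by -0.20 in log2 CPM, and the 4 others gave a log2 fold change of -0.40.

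The dopamine receptors overlapped between genotypes. Drd1 (ENSMUSG00000021478, chromosome 13, 54051183 to 54055705), the D1 receptor of the direct pathway, was at 12.1, 9.72 and 12.1 CPM in wt and 10.6, 9.54 and 8.75 CPM in Dyrk1a+/-. The wt library 2 lay inside the Dyrk1a+/- range. The fitted log2 fold change, -0.23 with an SE of 0.135, had a 95% interval from -0.54 to 0.071 and an adjusted p of 0.725 by edgeR. Drd2 (ENSMUSG00000032259, chromosome 9, 49340627 to 49408177), the D2 receptor of the indirect pathway, was the sparsest member, with 26 to 66 counts per library. It was at 1.89, 2.62 and 2.36 CPM in wt and 2.03, 1.81 and 1.39 CPM in Dyrk1a+/-. The lowest wt library fell between the Dyrk1a+/- libraries, and edgeR gave a log2 fold change of -0.38 with an SE of 0.224 and an adjusted p of 0.731. Its interval, -0.89 to 0.12, spans 0.539 to 1.09 of the wt level, and without Dyrk1a+/- library 3 the log2 value was -0.25. The difference of log2 CPM between Drd1 and Drd2 was 2.27 ± 0.38 in wt and 2.42 ± 0.14 in Dyrk1a+/- (SD, n = 3 per genotype), closer than the spread between wt libraries.

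Of the neuropeptide genes, Tac1 was lower in every Dyrk1a+/- library and Penk was not. Tac1 (ENSMUSG00000061762, chromosome 6, 7554879 to 7565834), the precursor of substance P, was at 10.2, 11.4 and 9.21 CPM in wt and 8.21, 7.12 and 8.32 CPM in Dyrk1a+/-. All 3 Dyrk1a+/- libraries lay below the lowest wt library. The fitted log2 fold change, -0.38 with an SE of 0.131, had a 95% interval from -0.68 to -0.082 and an adjusted p of 0.545 by edgeR, with -0.37 within the pair of libraries and -0.38 in the 4 others. Penk (ENSMUSG00000045573, chromosome 4, 4133531 to 4138819), the enkephalin precursor, had 40 to 89 counts per library. It was at 2.71, 2.94 and 2.15 CPM in wt and 1.93, 2.05 and 3.2 CPM in Dyrk1a+/-. Dyrk1a+/- library 3 was the highest of all 6 while the other two were the lowest, and edgeR gave a log2 fold change of -0.13 with an SE of 0.241 and an adjusted p of 0.944. Without that library the Penk value was -0.38, without Dyrk1a+/- library 1 it was 0.0025, without Dyrk1a+/- library 2 it was -0.024, and without wt libraries 2 or 3 it was -0.036 or -0.25. The difference of log2 CPM between Tac1 and Penk was 1.87, 1.93 and 2.06 in wt and 2.04, 1.76 and 1.36 in Dyrk1a+/-, which overlapped.

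The intracellular signalling members are Rgs9 and Ppp1r1b. Rgs9 (ENSMUSG00000020599, chromosome 11, 109225355 to 109298129), which speeds the shut-off of Gi and Go proteins downstream of D2 and opioid receptors, was at 27.4, 25.9 and 27.3 CPM in wt. Its Dyrk1a+/- libraries were at 24.1, 18.9 and 16.5 CPM, all below wt and spread far more widely (SD 3.87 against 0.845). The fitted log2 fold change, -0.44 with an SE of 0.134, had a 95% interval from -0.74 to -0.13 and an adjusted p of 0.514 by edgeR, with -0.53 within the pair of libraries and -0.39 in the 4 others. It was -0.60 without Dyrk1a+/- library 1 and -0.33 without Dyrk1a+/- library 3. Ppp1r1b (ENSMUSG00000061718, chromosome 11, 98348404 to 98357796), the phosphatase inhibitor DARPP-32 that relays D1 receptor signals, was at 7.38, 8.45 and 9.38 CPM in wt and 7.58, 8.05 and 6.78 CPM in Dyrk1a+/-. The groups overlapped, and edgeR gave a log2 fold change of -0.17 with an SE of 0.138 and an adjusted p of 0.814. Without wt library 3 it was -0.079, without Dyrk1a+/- library 3 it was -0.10 and without wt library 1 it was -0.25.

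Isl1 (ENSMUSG00000042258, chromosome 13, 116298281 to 116309689) was the only one of the 9 with a positive value. It was at 46.9, 44.5 and 47 CPM in wt and 50.1, 45.7 and 55.3 CPM in Dyrk1a+/-. The groups overlapped in Dyrk1a+/- library 2, and the fitted log2 fold change, 0.13 with an SE of 0.087, had a 95% interval from -0.070 to 0.32 and an adjusted p of 0.77 by edgeR. The pair alone differed by -0.038 in log2 CPM, and the 4 others gave 0.21. The Isl1 value was 0.053 without Dyrk1a+/- library 3 and 0.19 without Dyrk1a+/- library 2. Isl1 is also made by forebrain cholinergic neurons and by hypothalamic neurons, so its counts cannot be assigned to striatal cells alone. The same limit holds for the other members, since the RNA is of the whole forebrain.

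By the exact 2-sided permutation test of CPM over the 6 libraries, Oprm1, Rgs9, Tac1 and Adora2a reached p = 0.1, the smallest that 3 libraries against 3 allow. The 5 others had exact p values of 0.2 to 0.8. A gene reaches 0.1 when its groups do not overlap, so this test restates the non-overlap given above. Of all genes tested, 7.49% lay wholly below wt and 6.53% wholly above.

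**Figure D2:**
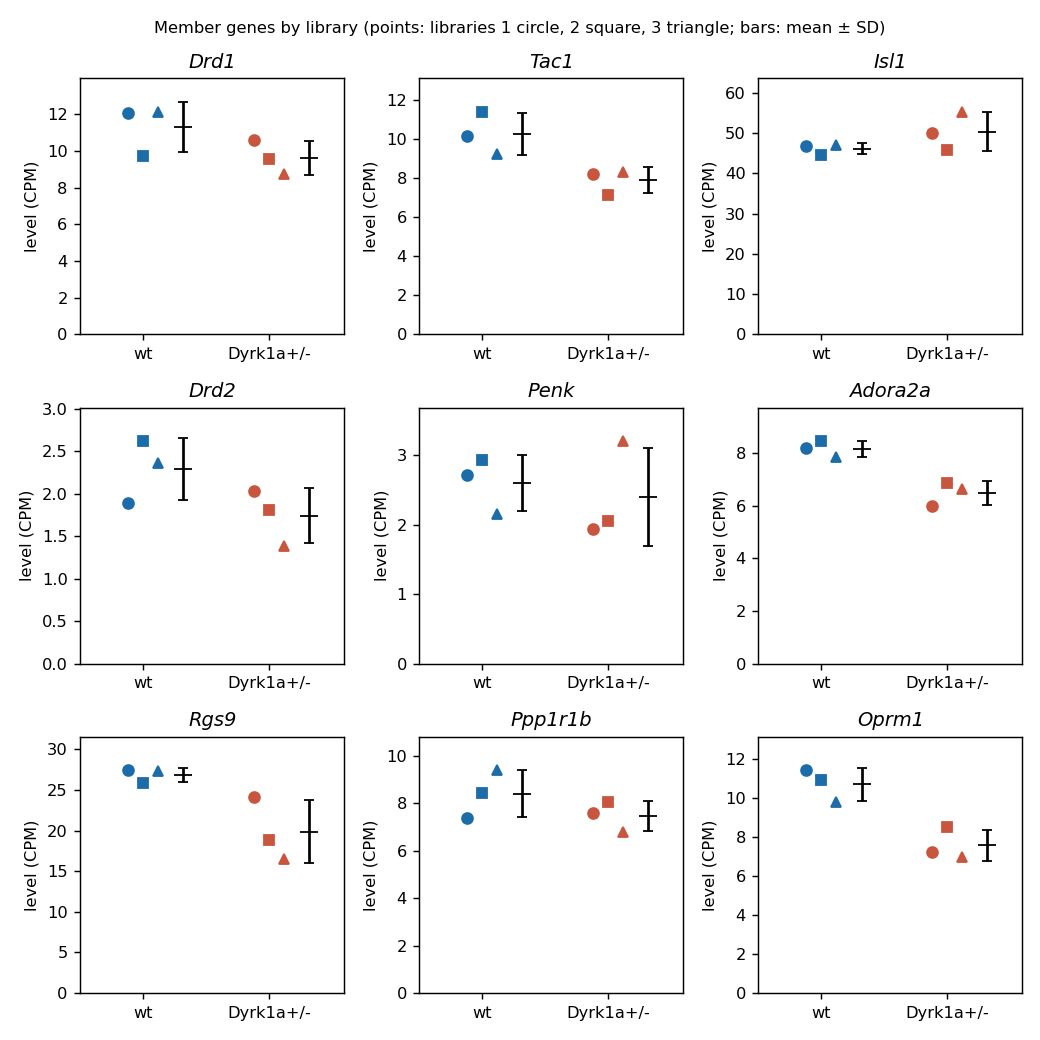
CPM of each member in each library; points are the 3 wt (blue) and 3 Dyrk1a+/- (red) libraries, and the black marks are means with bars of 1 SD. In Oprm1, Rgs9, Tac1 and Adora2a the red points lie wholly below the blue ones; in the 5 other genes they overlap.

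**Figure D3:**
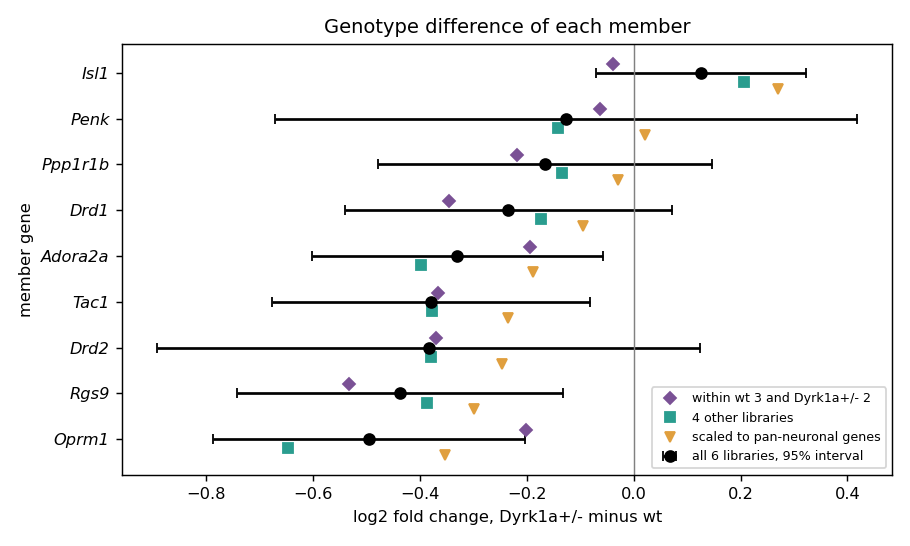
Log2 fold change, Dyrk1a+/- minus wt, for each member: circles with 95% intervals are the fit to all 6 libraries, and other symbols give the pair wt 3 and Dyrk1a+/- 2, the 4 other libraries, and libraries scaled to pan-neuronal genes. Circles run from -0.50 for Oprm1 to 0.13 for Isl1, and the intervals of Oprm1, Rgs9, Tac1 and Adora2a lie below 0 before adjustment over all genes.

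Other genes listed for the direct and indirect pathways fell into those with lower values and those near 0. In whole-forebrain RNA their counts cannot be assigned to striatal cells alone. Among 7 further direct-pathway genes 4 were lower, and the median of the 7 was -0.065. Pdyn, the precursor of the opioid peptide dynorphin, was at 3.9, 5.2 and 4.62 CPM in wt and 2.8, 3.78 and 2.19 CPM in Dyrk1a+/-, with no overlap (edgeR log2 fold change -0.63, SE 0.219, adjusted p = 0.547). Slc35d3, which helps bring D1 receptors to the cell surface, also did not overlap, at 0.989 ± 0.114 and 0.738 ± 0.093 CPM (SD, n = 3 per genotype). It had only 13 to 34 counts per library (edgeR log2 fold change -0.41, SE 0.26, adjusted p = 0.75). Ebf1, a transcription factor needed for direct-pathway differentiation, was at 68.2 ± 3.91 and 69.3 ± 5.97 CPM. The muscarinic receptor gene Chrm4 was at 1.53 and 1.56 CPM, Eya1 at 11.1 and 10.6 CPM, and Sfxn1 at 69 and 64.2 CPM. Zfp521 was higher in value, at 122 and 131 CPM, with overlap.

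Of 5 further indirect-pathway genes tested, all 5 had negative values, 3 of them within 0.02 of 0, and the median was -0.018. Gpr6, an orphan receptor of indirect-pathway neurons, was at 1.31, 0.912 and 1 CPM in wt and 0.821, 0.604 and 0.587 CPM in Dyrk1a+/-, with 11 to 43 counts per library (edgeR log2 fold change -0.69, SE 0.286, adjusted p = 0.615). Ptprm, a receptor phosphatase, was at 54.2 ± 1.05 and 48.2 ± 2.92 CPM without overlap. Sp9 and Six3, transcription factors that specify indirect-pathway neurons, were at 17.1 and 17 CPM and at 6.17 and 6.16 CPM. Grik3, a kainate receptor subunit, was at 244 and 241 CPM.

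The list of striatal cAMP and calcium signalling genes had 23 of 25 genes lower and a median of -0.25 on the log2 scale. By edgeR 11 were lower and 0 higher at an unadjusted p under 0.05 (44%, against 4.61% of all genes). The share lower at that p was 40% in the synapse maturation list and 33.3% in the pan-neuronal list. Counts of these signalling genes come from the whole forebrain and cannot be assigned to striatal cells alone. None passed the adjusted threshold by edgeR, DESeq2 or limma-voom. The lowest p values were those of Prkcb, a protein kinase C (78.5 ± 2.98 against 63.3 ± 4.81 CPM; log2 fold change -0.31), and Rasgrp2, a calcium-regulated exchange factor of striatal neurons (23.3 ± 1.37 against 17.2 ± 2.48 CPM; -0.44), both without overlap (SD, n = 3 per genotype). Picked after their values were seen, as partners of the 9 genes, were Gnal, Adcy5 and Gnb5. Gnal, the Gs-type alpha subunit coupled to D1 and Adora2a receptors, was at 86.9, 82 and 78.7 CPM in wt and 70.8, 70.3 and 54.4 CPM in Dyrk1a+/-. Gnb5, the obligate beta subunit of Rgs9, was at 21.9, 19.4 and 24.4 CPM and at 18.2, 16.8 and 14 CPM, so that its groups, like those of Rgs9 and Gnal, did not overlap. Adcy5, the main striatal adenylyl cyclase, overlapped at 78.2 ± 2.79 and 70.9 ± 7.49 CPM. The median of the list was -0.17 without Dyrk1a+/- library 3 and -0.15 within the pair of libraries.

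Striatal transcription factors were close to even: 11 of 21 had negative values, the median was -0.005, and 2 were lower at an unadjusted p under 0.05 (Mef2c, -0.44, and Ikzf1, -0.51). Neither passed after adjustment. Ebf1, Sp9 and Six3, given above with the pathway genes, are also in this list. Its counts too come from the whole forebrain and cannot be assigned to striatal cells alone. The median of this list was 0.072 without wt library 2 and -0.071 without wt library 3. When libraries were scaled to this list instead of to all genes, a setting chosen after the data were seen, the member median was -0.29.

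Relatives of the receptors, peptides and regulators mostly had lower values too. Of 24 listed relatives 16 were tested and 14 of these were lower, the median being -0.35; 6 were lower and 1, Pomc, higher at an unadjusted p under 0.05 (edgeR), against 4.61% and 3.27% of all genes, and 0 passed after adjustment by edgeR, DESeq2 or limma-voom. The delta opioid receptor gene Oprd1, with 9 to 31 counts per library, was at 0.876 ± 0.14 and 0.517 ± 0.098 CPM (SD, n = 3 per genotype). The kappa receptor gene Oprk1 was at 2.3 ± 0.541 and 1.74 ± 0.464, and the nociceptin receptor gene Oprl1 at 92.6 ± 3.11 and 92.2 ± 6.92 CPM. The A1 adenosine receptor gene Adora1, widely expressed in neurons, was at 30.3, 24.6 and 30.2 CPM in wt and 24.5, 24.3 and 18.6 CPM in Dyrk1a+/-, with no overlap by a margin of under 0.1 CPM. Rgs7, of the same subfamily as Rgs9, was at 18.8 ± 1.47 and 15.6 ± 0.877 CPM, and the neurokinin receptor gene Tacr3 at 2.08 ± 0.293 and 1.37 ± 0.234 CPM. Of other peptide and purine genes, the nociceptin precursor Pnoc was at 4.71 ± 0.356 and 3.63 ± 0.591 CPM and the receptor gene Adora2b at 1.55 ± 0.189 and 1.12 ± 0.124 CPM, both without overlap. Tacr1, the substance P receptor, was at 4.1 ± 0.671 and 4.16 ± 0.512 CPM. Of the regulators, Rgs6 was at 29.2 ± 1.25 and 24 ± 3.78 CPM without overlap, Rgs11 at 2.63 ± 0.409 and 1.88 ± 0.469, Rgs7bp at 15.2 ± 1.33 and 13.4 ± 0.331, and the anchor of Rgs9 in retina, Rgs9bp, at 2.04 ± 0.406 and 1.58 ± 0.252 CPM. Ppp1r1a, a paralog of Ppp1r1b, was at 22 ± 1.38 and 20.6 ± 0.559 CPM. Pdyn, Rgs7bp and Pomc also belong to the direct-pathway, signalling and diencephalic lists. Pomc, the precursor of beta-endorphin, was at 1.36 ± 0.283 and 2 ± 0.116 CPM, with every Dyrk1a+/- library above wt. Other dopamine receptors were too sparse to test: Drd3 had 0 to 10, Drd4 2 to 10 and Drd5 2 to 9 counts per library.

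**Figure D4:**
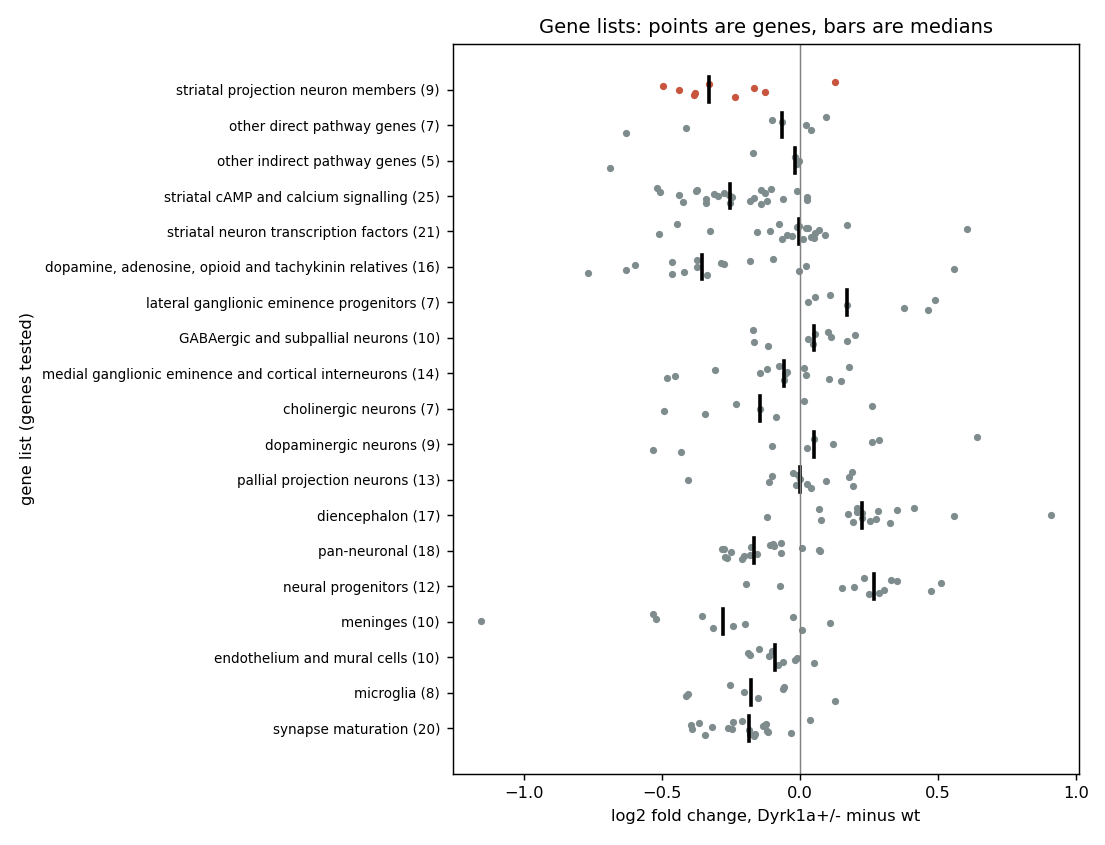
Log2 fold change, Dyrk1a+/- minus wt, of every tested gene (points) and the median (bars) of the 9 members (red) and of 18 comparison lists (grey). The member median is -0.33, that of striatal signalling genes -0.25 and that of striatal transcription factors -0.005, while medians of lateral ganglionic eminence progenitors (0.17), diencephalon (0.23) and neural progenitors (0.27) are above 0.

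Markers of other cells are given beside these values. In the pan-neuronal list 15 of 18 genes had negative values, 6 of them (33.3%, against 4.61% of all genes) at an unadjusted p under 0.05. The median was -0.17 and the summed level 8781 to 9263 CPM in wt and 8065 to 8371 CPM in Dyrk1a+/-; Nefl and Nefm, neurofilament subunits, had the lowest p values (-0.28 and -0.27). Genes of synapse maturation were lower in 19 of 20 cases (median -0.18), 8 of them (40%) at an unadjusted p under 0.05, with a summed level of 3083 to 3622 against 2765 to 3129 CPM and the lowest p values in Sv2b and Camk2b. With each library scaled to the pan-neuronal list, which moved the median of all genes to 0.15, the member median was -0.19, and the values were -0.35 for Oprm1, -0.30 for Rgs9, -0.24 for Tac1, -0.25 for Drd2, -0.19 for Adora2a, -0.095 for Drd1, -0.029 for Ppp1r1b, 0.021 for Penk and 0.27 for Isl1. On this scale 2 members, Oprm1 and Rgs9, were lower at an unadjusted p under 0.05 by edgeR, against 1.45% of all genes. Isl1 was higher at that p, as were 17.3% of all genes. With libraries scaled to GABAergic and subpallial neuron genes the values were instead -0.52 for Oprm1 and -0.45 for Rgs9, and the member median was -0.35.

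That GABAergic list, with 3 of 10 genes lower and a median of 0.050, summed to 910 to 958 CPM in wt and 906 to 986 CPM in Dyrk1a+/-. Dlx1, a transcription factor of the ganglionic eminences, was higher in value (0.17). Of 7 tested genes of lateral ganglionic eminence progenitors, the source of these neurons, all 7 had positive values (median 0.17) and summed levels were 132 to 158 and 146 to 186 CPM. Gadd45g (0.49) had the lowest p value, and the genotypes overlapped in each of the 7. General neural progenitor genes were higher in 10 of 12 cases (median 0.27), 7 of them (58.3% of the list, against 3.27% of all genes) at an unadjusted p under 0.05. Their summed levels were 1581 to 1779 and 1792 to 2043 CPM, and Mki67 and Hes1 had the lowest p values. DESeq2 called 1 gene of this list at an adjusted p under 0.05, and edgeR none.

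Diencephalic genes had positive values in 16 of 17 cases (median 0.23), 3 of them (17.6%) at an unadjusted p under 0.05, and summed to 248 to 290 CPM in wt and 268 to 378 CPM in Dyrk1a+/-; Nhlh2 (0.35) and Rax (0.91) had the lowest p values, and the median was 0.059 within the pair of libraries. Cholinergic genes, which share Isl1 as a determinant, were lower in 5 of 7 cases (median -0.14; summed 34.4 to 39.1 and 32.8 to 40.2 CPM), led by Gbx2 (0.26) and Slc5a7 (-0.35), none at an unadjusted p under 0.05. Dopaminergic genes were lower in 3 of 9 cases (median 0.050; 71.3 to 81.8 and 74.3 to 84.4 CPM), led by Lmx1a (0.26) and Th (-0.43), none at an unadjusted p under 0.05. Genes of the medial ganglionic eminence and cortical interneurons were lower in 9 of 14 cases, 2 of them (14.3%) at an unadjusted p under 0.05 (median -0.056; 1676 to 1747 and 1533 to 1730 CPM), with the peptide genes Sst (-0.48) and Npy (-0.45) lowest in p and without overlap. Pallial projection neuron genes were lower in 6 of 13 cases (median 0.002; 1477 to 1589 and 1518 to 1590 CPM), with Sox5 at 0.19.

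Meningeal genes were lower in 8 of 10 cases, 6 of them (60%) at an unadjusted p under 0.05 (median -0.28; 508 to 596 and 430 to 476 CPM), led by Ptgds (-1.16; adjusted p = 0.0238 by edgeR) and Postn (-0.53). Microglial genes were lower in 7 of 8 cases, 2 of them (25%) at an unadjusted p under 0.05 (median -0.18; 57.8 to 62.2 and 48.3 to 58.2 CPM), led by C1qc and C1qb. Endothelial and mural genes, from cells that also express Adora2a, were lower in 9 of 10 cases (median -0.090; 371 to 409 and 336 to 380 CPM), led by Pdgfrb and Abcc9, none at an unadjusted p under 0.05. No tested gene of these lists was at 0 in any library. The part of any of these cells, or of where the forebrain was cut, in the member values was not tested.

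By the smallest root mean square difference of centred log2 CPM from the mean member profile, the most alike of 12776 other genes of at least 5 CPM were Cldn11, Tspan7, Inha, Atp6v0c and Fstl5 (0.018 to 0.039 on the log2 scale, over 6 libraries). Cldn11 encodes a claudin, Tspan7 a neuronal tetraspanin, Inha an inhibin subunit, Atp6v0c a subunit of the vacuolar proton pump and Fstl5 a follistatin-like protein. Tspan7 was at 95.2, 94 and 96.3 CPM in wt and 79.2, 77.8 and 77.2 CPM in Dyrk1a+/-. The mean member profile was 0.123, 0.171 and 0.113 above its own mean in wt libraries 1 to 3 and -0.101, -0.146 and -0.161 in the Dyrk1a+/- libraries. These genes were picked for the same difference between libraries, so their values are a description.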

How the data were processed

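The data were bulk RNA sequencing counts from 3 wt and 3 Dyrk1a+/- mouse forebrains at 15.5 days post coitum, grouped and numbered by sample title. The authors deposited raw counts per Ensembl gene, 1 column per library. Per the submitters' processing notes, bcl2fastq 2.17.1.14, HISAT2, SAMtools 1.9, HTSeq 0.9.1 and GRCm38/mm10 were used; per the labels' protocols the kit keeps strand and depletes ribosomal RNA, though polyA RNA is also named. Which annotation was counted, and whether strand was used, is not given in the sources here.

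Symbols, gene coordinates and exon lengths came from GENCODE M21 (32888 of 33084 identifiers matched). In R 4.3.3, edgeR 4.0.16 was used with filterByExpr defaults, TMM scaling and its quasi-likelihood test of genotype, with Benjamini-Hochberg adjustment over 19403 genes; DESeq2 1.42.0 and limma 3.58.1 were alternatives. SE and 95% intervals come from the F statistic. No library was a copy of another (chi-square per degree of freedom at least 4.55 between any pair). The labels do not say whether embryos shared a litter, so p-values measure the spread between these samples; reads are not independent molecules.

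The members and lists were chosen with earlier results of these data known. Named genes are the members, Dyrk1a, the 2 genes of lowest p in each list, any tested direct-pathway, indirect-pathway or relative gene, and the 5 genes most alike to the mean member profile; exceptions are marked. Some genes that this rule names are not reported here. Of the listed genes, Gpr52 and Pde2a were not analysed here. Alternatives covered scaling, filters, test, robust fitting, a replicate block, a term for 2 libraries, subsets and leaving out each library.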

Additional observations from a re-analysis of the deposited data

How the results depend on the processing

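No member passed the adjusted threshold in any alternative, and 7 of the 9 kept their direction in all of them. The exceptions were Penk, at 0.0025 without Dyrk1a+/- replicate 1 and 0.021 scaled to pan-neuronal genes, and Isl1, at -0.038 within the pair of libraries; the cause was not tested. Adjusted p values ran from 0.135 to 0.999 for Oprm1, from 0.159 to 0.999 for Rgs9 and Tac1 and from 0.22 to 0.999 for Adora2a. The member median was -0.38 in the 4 libraries, -0.19 scaled to pan-neuronal genes, -0.29 scaled to striatal transcription factors and -0.22 within the pair, and -0.36 to -0.30 with 1 library left out. Genes passing over the whole table numbered 2 in the main test, 4 with no low-count filter, 30 by DESeq2, 6 with a term for the 2 libraries, 6 in the 4 others and 0 to 5 with 1 library left out (0 without wt 1, wt 2, Dyrk1a+/- 1 or Dyrk1a+/- 3).

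With replicate number as a block 0 genes passed edgeR, and the member median was -0.33. Deviations of same-numbered libraries correlated at 0.201, -0.325 and -0.165, and those of wt 3 and Dyrk1a+/- 2 at 0.452. With 3 libraries per genotype the deviations depend on each other, so these values cannot decide whether the numbers mark pairs.

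List medians within the pair of libraries were -0.15 for striatal signalling, -0.021 for GABAergic, -0.26 for cholinergic, 0.059 for diencephalic, -0.074 for pan-neuronal, 0.13 for progenitor, -0.39 for meningeal and -0.10 for synaptic genes. In the 4 others they were -0.27 for microglial and -0.26 for synaptic genes. With 1 library left out the medians ran from -0.14 to 0.058 for direct-pathway, -0.10 to -0.024 for indirect-pathway, -0.28 to -0.17 for signalling, -0.071 to 0.072 for transcription factor and -0.36 to -0.28 for relative genes. They ran from -0.12 to -0.0069 for interneuron, -0.28 to -0.043 for cholinergic, -0.18 to -0.12 for pan-neuronal, 0.18 to 0.32 for progenitor, -0.29 to -0.14 for microglial and -0.25 to -0.13 for synaptic genes. Depth limited Drd2 and Penk most, with 26 to 89 counts per library.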
